A study of Mus musculus with 96 samples.

Results

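The time of day program of the control liver was read from 12 RNA-sequencing libraries out of the 96 of the series, chosen because their labels name liver and the undisturbed condition (CON). They came from wild-type C57BL/6 mice, males 6 to 8 weeks old by the study's methods, with 2 libraries at each of CT4, CT8, CT12, CT16, CT20 and CT24, where CT is circadian time in hours as the labels give it. By the study's account mice were kept on a light-dark cycle and samples were collected in constant darkness, with food and water freely available. Which hour of the light cycle CT0 stands for is not given in the sources used here, and a second time label in the records begins at DD0 for CT4. The other groups used were 12 liver libraries from sleep-deprived mice (SD), kept in a slowly rotating drum for 10 h of the resting phase with food and water at hand, and 12 kidney libraries from control mice, all of the same strain and genotype. By the study's account the 2 libraries of a time are biological repeats, and the labels do not tie them to single mice.

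The liver clock is a loop of transcription factors. BMAL1 (gene Arntl) pairs with CLOCK or NPAS2 and activates Per, Cry, Nr1d and the PAR bZIP factors, PER and CRY proteins shut their own activators off, and NR1D1 and NR1D2 repress Arntl and Npas2. In the liver this loop, together with feeding, sets the daily timing of fat, sugar, bile acid and drug metabolism.

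Control liver libraries held 32.4 to 48.9 M counts. Hepatocyte markers summed to 93514 to 119030 CPM (counts scaled to a common library total), while 5 kidney markers summed to at most 1.72 CPM and 8 pancreatic acinar markers to at most 3.10 CPM. Of 13 marker list scores compared between the 4 libraries of CT4 and CT8 and the 4 of CT16 and CT20, none passed after adjustment over the lists. Hepatocyte markers had the smallest raw p, at 0.14 lower on the log2 scale at CT16 and CT20 (exact permutation p = 0.0286, two-sided, adjusted 0.371; 0.0286 is the smallest p that 4 against 4 libraries can give), and 2 of the 8 measured, Ttr and Fgb, were called lower. Pericentral markers, genes of hepatocytes near the central vein, summed to 5385 to 5982 CPM at CT4 and CT8 and to 6942 to 8521 CPM at CT16 and CT20 without overlap, with Cyp2e1 and Slc1a2 called higher of 8 and 0.17 for the score (exact permutation p = 0.0571, two-sided, adjusted 0.371). The median log2 difference of the 8 was 0.03, and 6 of them were not called. In sleep-deprived liver 3 of the 8 had the same sign. Fewer cells of a type and less RNA per cell cannot be told apart in bulk liver.

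The 2 libraries of CT16 stood apart in a measure of unspliced RNA. Counts of 1599 noncoding genes that lie wholly inside an intron of a protein-coding gene on the same strand were set against the counts of their 925 host genes. This intron-embedded share was 3.62% and 3.63% at CT16 and between 1.41% and 2.13% in the other 10 control liver libraries, resting on 22472 to 57537 embedded counts per library. At CT20 it was 1.70% and 1.74%. In sleep-deprived liver it reached 4.07% in replicate 1 of CT16 and 1.35% in replicate 2, with 1.11% to 1.65% at the other times, and control kidney lay between 1.34% and 2.37%. Counts of called genes in control liver over CT16 and CT20 together are therefore also given for CT20 alone, by gene list as well. Named genes whose call was lost there are given too. The differences from sleep-deprived liver and from control kidney were fitted for both times together only. How much of a CT16 difference is unspliced RNA was not tested gene by gene.

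**Figure D1:**
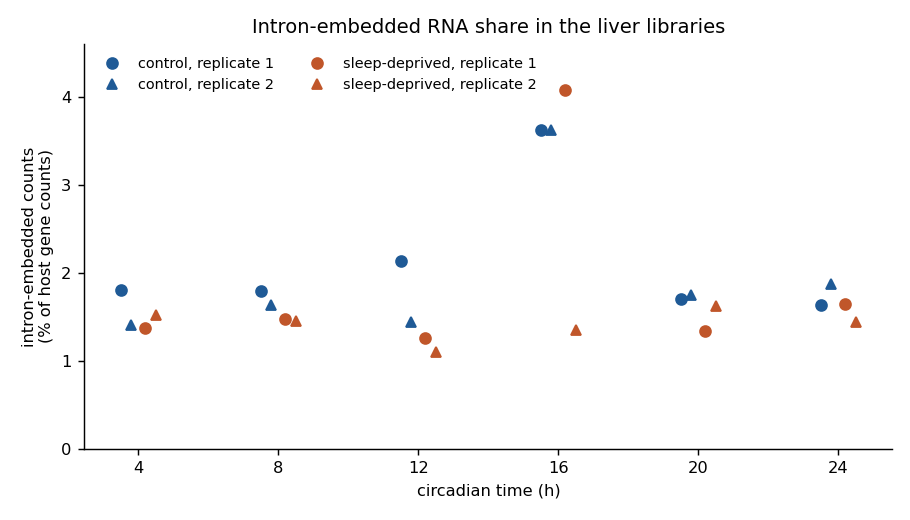
Intron-embedded counts as a percentage of host gene counts (vertical axis) at each circadian time in hours, for 12 control and 12 sleep-deprived liver libraries, with 1 point per library. Both control libraries of CT16 (3.62% and 3.63%) and 1 sleep-deprived library of CT16 (4.07%) lie above all others, which reach at most 2.13%.

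To find genes with a different level at opposite times of day, the mean of CT16 and CT20 was set against the mean of CT4 and CT8. In edgeR 2077 of 19189 tested genes (10.8%) passed an adjusted p under 0.05, 883 of them higher at CT16 and CT20 (4.6% of genes tested) and 1194 lower (6.22%). More than 2-fold differences were seen for 219 of the higher and 195 of the lower genes. With library sizes in place of TMM scaling the count was 2304 but the split turned, with 1589 higher and 715 lower, so the higher share of the calls went from 42.5% to 69.0% while the median log2 difference of all genes moved from 0.00 to 0.10. All differences given are those under TMM. The 100 most abundant genes took 37.2% of counts at CT4 and CT8 and 35.5% at CT16 and CT20 (exact permutation p = 0.0286, two-sided). TMM factors were 0.095 higher on the log2 scale at CT16 and CT20 and did not pass (exact permutation p = 0.229, two-sided). Neither p was adjusted.

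With CT20 alone against CT4 and CT8, 528 genes passed (2.75%), 241 higher (1.26%) and 287 lower (1.5%), and 468 of these 528 were among the 2077. With CT16 alone 4298 passed (22.4%). Of the genes higher at CT16, 65.0% were protein-coding, against 71.7% of all genes tested and 84.6% of the genes higher at CT20. The coding genes among them spanned a median of 63.3 kb of genome, against 25.5 kb for all coding genes tested and 41.9 kb for those higher at CT20. Of 728 intron-embedded genes tested, 71 were called at CT16 and CT20, each of them higher, and with CT20 alone 1 was called higher. Their median log2 difference was 1.12 at CT16 and 0.10 at CT20. With the share as a covariate 163 genes passed (0.849%), 153 of them among the 2077, and 26 of the 73 named genes that were called kept their call, all 73 with the same sign. That fit called 3 of 6 clock repressors, 7 of 14 liver outputs of the clock and 1 of 20 ER folding genes. The slope of that fit comes from differences between the 2 libraries of a time, the widest being 1.45% against 2.13% at CT12, so at CT16 it reaches beyond its own range.

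Of 18 tested members of 4 clock lists, 15 were called, against 10.8% of all genes, and 14 were called with CT20 alone, against 2.75%. Dbp was listed but held too few counts to be tested.

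All 3 activators were lower at CT16 and CT20. Arntl (ENSMUSG00000055116; GRCm38 chromosome 7, 113207465 to 113314126) stood at 46.7 and 35.9 CPM at CT4, 50.4 and 43.8 at CT8, 23.3 and 13.8 at CT12, 4.65 and 5.09 at CT16, 8.49 and 7.12 at CT20 and 31.2 and 23.4 at CT24. It was high in all 4 libraries of CT4 and CT8 and lowest at CT16, with no overlap between the groups (log2 difference -2.93, SE 0.18, edgeR adjusted p = 5.09e-06; -2.50 at CT20 alone, adjusted p = 0.000226). Npas2 (chromosome 1, 39193731 to 39363236), which can take the place of CLOCK, had, beside Ciart, the widest difference among the genes named here. Its libraries held 9.14 and 7.64 CPM at CT4, 14.2 and 14.9 at CT8, 5.54 and 2.11 at CT12, 0.462 and 0.309 at CT16, 0.202 and 0.336 at CT20 and 0.676 and 0.254 at CT24. It was high at CT4 and CT8 and below 1 CPM in all 6 libraries from CT16 to CT24 (log2 difference -5.17, SE 0.36, edgeR adjusted p = 1.53e-05; -5.32 at CT20 alone). Clock itself moved far less, from 108–133 CPM at CT4 and CT8 to 59.0–77.9 CPM at CT16 and CT20 (log2 difference -0.87, SE 0.11, edgeR adjusted p = 0.000619).

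Of the 6 repressors of the loop, Per1, Per2, Per3 and Ciart were higher at CT16 and CT20, Cry1 was lower and Cry2 did not pass. Per3 (chromosome 4, 151003652 to 151044665) stood at 20.7 and 15.7 CPM at CT4, 5.11 and 4.997 at CT8, 17.7 and 19.0 at CT12, 136 and 91.4 at CT16, 76.5 and 60.3 at CT20 and 29.7 and 38.5 at CT24. Its lowest level was at CT8 in both libraries, and the groups did not overlap (log2 difference 3.11, SE 0.15, edgeR adjusted p = 8.53e-07; 2.84 at CT20 alone). Ciart (chromosome 3, 95878503 to 95882251), whose protein represses CLOCK and BMAL1, rose from 0.0299–0.784 CPM at CT4 and CT8 to 15.4–16.1 CPM at CT16 and 6.88–8.22 CPM at CT20 (log2 difference 5.14, SE 0.42, edgeR adjusted p = 3.99e-05). The lowest of these values rests on a single count, so its fold is loosely set at the low end. Per2 had 47.6 and 27.2 CPM at CT4, 24.3 and 15.9 at CT8, 27.9 and 27.6 at CT12, 97.5 and 88.6 at CT16, 81.7 and 88.2 at CT20 and 95.8 and 122 at CT24. It stayed high through CT24, while Per1 had already come down to 21.1–21.5 CPM there from 51.7–63.0 CPM at CT16. Per1 differed by 2.05 (SE 0.23, edgeR adjusted p = 0.000249) and Per2 by 1.604 (SE 0.16, adjusted p = 0.000178) on the log2 scale, but for Per1 the groups overlapped, with 1 library of CT4 at 34.4 CPM above both of CT20. Cry1 ran against the Per genes, with 78.3 and 69.7 CPM at CT4, 44.9 and 31.2 at CT8, 11.6 and 9.54 at CT12, 15.2 and 16.6 at CT16, 33.1 and 33.4 at CT20 and 57.8 and 46.5 at CT24. It was lowest at CT12 and higher again at CT20, where both libraries lay above the lowest of CT8 (log2 difference -1.30, SE 0.13, edgeR adjusted p = 0.000144; -0.67 at CT20 alone, adjusted p = 0.046). Cry2 ranged from 29.9 to 65.5 CPM over the 12 libraries (log2 difference 0.33, SE 0.11, edgeR adjusted p = 0.0664).

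Nuclear receptors of the loop came next. Nr1d1 (ENSMUSG00000020889; chromosome 11, 98767932 to 98775333) stood at 4.79 and 2.76 CPM at CT4, 6.85 and 13.3 at CT8, 65.1 and 68.8 at CT12, 93.1 and 53.7 at CT16, 16.7 and 18.3 at CT20 and 4.46 and 4.63 at CT24. It was high at CT12 and CT16 and already low again at CT20, and the CT20 contrast was smaller (1.51, edgeR adjusted p = 0.00904) than that of both times (2.45, SE 0.23, adjusted p = 0.000101). Nr1d2, its partner repressor, went from 19.1–29.1 CPM at CT4 and CT8 to 157–277 CPM at CT16 and CT20 (log2 difference 2.93, SE 0.12, edgeR adjusted p = 3.07e-07). Rora, an activator, did not pass (edgeR log2 difference -0.07, SE 0.13, adjusted p = 0.78).

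Among output factors, Tef, a PAR bZIP activator, rose from 34.9–104 CPM at CT4 and CT8 to 233–336 CPM at CT16 and CT20 (log2 difference 2.14, SE 0.09, edgeR adjusted p = 5.84e-07). Its sister Hlf differed less (0.64, SE 0.12, adjusted p = 0.00569). Nfil3, a repressor that competes for the same D-box element, ran the opposite way, from 43.4–60.7 CPM down to 13.0–27.3 CPM (log2 difference -1.63, SE 0.14, edgeR adjusted p = 5.61e-05). Bhlhe41 was called over both times (1.37, adjusted p = 0.00667) and not at CT20 alone (0.62, adjusted p = 0.42), and Bhlhe40 was not called in either (0.63, SE 0.28, adjusted p = 0.173).

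**Figure D2:**
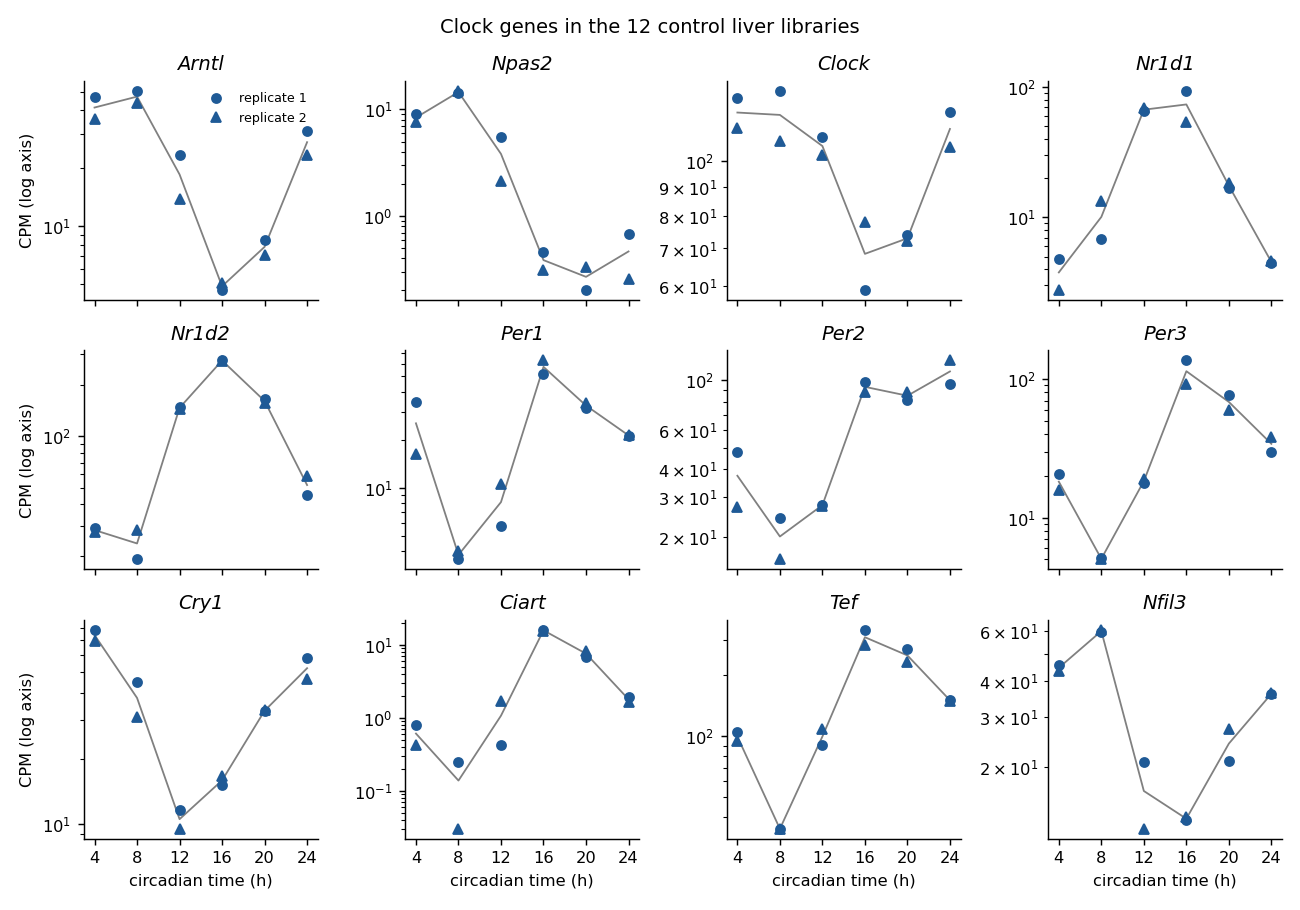
Levels of 12 clock genes in CPM (log axis) against circadian time in hours in the control liver, with 1 point per library and a line through the mean of the 2 replicates. Arntl, Npas2 and Clock are low at CT16 and CT20, Nr1d1 and Nr1d2 are highest at CT12 to CT16, Per1, Per3, Ciart and Tef are highest at CT16, Nfil3 is highest at CT8, and Cry1 is lowest at CT12.

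The order of these genes over the day was read from a 24 h cosinor fitted to all 12 libraries, which called 14 of the 18 clock genes (9.13% of all genes tested). Peak times ran from Cry1 at 2.19 h and Nfil3 at 4.13 h through Clock at 5.07 h, Arntl at 5.24 h and Npas2 at 7.32 h to Nr1d1 at 14.5 h and Bhlhe41 at 15.6 h. Then came Nr1d2 at 16.8 h, Ciart at 18.3 h, Per3 at 19.1 h, Tef at 19.4 h, and Per2 and Hlf, both at 20.8 h. Samples are 4 h apart, and differences between peak times were not tested. The fitted peak-to-trough ratio was 96.7-fold for Npas2, 58.9-fold for Ciart, 24.3-fold for Nr1d1, 12.7-fold for Per3, 10.6-fold for Arntl and 2.05-fold for Clock. Without the CT16 libraries 14 clock genes were called too, but not the same ones, and the peak moved by a median of 0.278 h and at most 2.02 h. Per1 and Cry2 passed without CT16 (edgeR adjusted p = 0.0478 and 0.00938) and not with it (0.0672 and 0.0541), while Nfil3 and Bhlhe41 passed with it and not without (0.0531 and 0.123).

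Promoters of the clock genes are shown because the loop acts through short DNA elements there. RefSeq promoters (GRCm38.p6, the 250 bases before each start) were at hand for 11726 tested genes and 15 clock genes. The E-box CACGTG, the element that BMAL1 and its partners bind, was found in 5 of the 15 clock promoters (33.3%) against 9.21% of all these promoters, and the D-box, searched as TTATGTAA or TTACGTAA on both strands, in 1 (6.67%) against 0.904%. The stretch around each match is printed 5′ to 3′ on the strand of the gene, with the matched letters in capitals.
Per1, chr11:69098763-69098808, plus strand: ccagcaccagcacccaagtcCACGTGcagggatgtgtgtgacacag
Cry1, chr10:85185089-85185134, minus strand: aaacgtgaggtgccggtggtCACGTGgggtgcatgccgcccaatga
Ciart, chr3:95882247-95882364, minus strand: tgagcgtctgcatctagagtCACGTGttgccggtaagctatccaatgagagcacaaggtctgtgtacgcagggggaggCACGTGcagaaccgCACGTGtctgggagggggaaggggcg
Tef, chr15:81802526-81802571, plus strand: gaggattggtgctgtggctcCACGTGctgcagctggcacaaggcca
Bhlhe41, chr6:145865548-145865593, minus strand: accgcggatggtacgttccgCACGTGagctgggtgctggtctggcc
Per3, D-box, chr4:151044796-151044890, minus strand: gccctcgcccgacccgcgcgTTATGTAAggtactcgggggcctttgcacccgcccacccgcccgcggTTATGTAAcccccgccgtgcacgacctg
The Ciart window holds 3 E-boxes and the Per3 window 2 D-boxes, and Tef has a second start with an E-box of its own. Over all calls the E-box was in 12.7% of promoters of genes higher at CT16 and CT20 and in 10.6% of those lower, both near the 9.21% of all. By peak time its share ran from 8.81% for peaks within 2 h of 8 h to 14.8% (28 of 189) within 2 h of 16 h. These peaks come from all 12 libraries, and the 16 h window fell from 325 to 50 genes without the CT16 libraries. Promoter shares were not taken without CT16. The RORE was in 0 of the 15 clock promoters against 0.316% of all promoters, and the heat shock element in 0 against 0.469%. The cAMP element TGACGTCA was in 1 of the 15 (6.67%) against 2.71%. A match describes the letters only.

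Genes known to follow the clock in the liver were read as a list. They were chosen for this and with earlier results of these data known, so their count is no test. Of 14 such genes, 11 were higher and 2 lower at CT16 and CT20, against 4.6% and 6.22% of all genes. With CT20 alone 9 were higher and 2 lower, against 1.26% and 1.5%. Rgs16 (chromosome 1, 153740349 to 153745468), a regulator of G protein signals, stood at 1.66 and 0.276 CPM at CT4, 1.68 and 0.389 at CT8, 13.0 and 23.6 at CT12, 72.1 and 77.1 at CT16, 11.8 and 18.5 at CT20 and 3.11 and 1.07 at CT24. It was at most 1.68 CPM in the 4 libraries of CT4 and CT8 and at least 11.8 CPM in those of CT16 and CT20 (log2 difference 5.002, SE 0.50, edgeR adjusted p = 0.00015). Its antisense neighbour Gm28513 (chromosome 1, 153743552 to 153749324, minus strand) overlaps it and had the same shape, from 0.00–0.180 CPM to 0.950–4.01 CPM, and counting by strand keeps the pair apart only as far as the libraries keep strand. Usp2, a ubiquitin protease, went from 3.53–23.0 to 48.4–65.0 CPM (log2 difference 2.49, SE 0.24, edgeR adjusted p = 0.000134). Noct, a nocturnin that acts on NADP and NADPH, differed by 2.31 (SE 0.38, edgeR adjusted p = 0.00288) and Mfsd2a, a lipid transporter, by 2.75 (SE 0.38, adjusted p = 0.00105). Nampt, the rate-limiting enzyme of NAD salvage, was at 87.6 ± 11.9 CPM at CT4 and CT8 and 223 ± 37.4 CPM at CT16 and CT20 (SD, n = 4; log2 difference 1.25, edgeR adjusted p = 3.13e-05). The lower pair was Ppard, a fatty acid receptor of the nucleus (-2.0, adjusted p = 0.000108), and Avpr1a, the vasopressin receptor of hepatocytes (-1.49, adjusted p = 7.90e-05). Tfrc did not pass (-0.02, adjusted p = 0.954). Alas1 and Lpin1 passed over both times and not at CT20 alone (adjusted p = 0.0998 and 0.156).

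Of 20 genes that fold proteins in the endoplasmic reticulum (ER), 13 were lower at CT16 and CT20, 1 was higher and 6 did not pass, with a median log2 difference of -0.69 against 0.00 over all genes. With CT20 alone 7 were lower and 1 higher, with a median of -0.49. Of all genes tested 6.22% were lower and 4.6% higher over both times, and 1.5% and 1.26% at CT20 alone. With library sizes, DESeq2 size factors and DESeq2 itself the count was again 13 lower and 1 higher. Sdf2l1, a partner of the ER chaperone BiP, stood at 52.6 and 51.9 CPM at CT4, 77.6 and 72.6 at CT8, 33.3 and 44.8 at CT12, 20 and 22.4 at CT16, 20.2 and 34.2 at CT20 and 55.7 and 73.5 at CT24. It was lowest from CT16 to CT20 and back up at CT24, with no overlap between the groups (log2 difference -1.48, SE 0.16, edgeR adjusted p = 0.000198; -1.20 at CT20 alone, adjusted p = 0.00692). Calr, the chaperone calreticulin, went from 1044 ± 148 to 588 ± 77.4 CPM (SD, n = 4; log2 difference -0.92, edgeR adjusted p = 0.000168), and Pdia4, a disulfide isomerase, from 476 ± 35.0 to 268 ± 26.3 CPM (-0.93, adjusted p = 4.96e-05). Both passed at CT20 alone (adjusted p = 0.0089 and 0.00229). Hyou1 and Creld2 were lower over both times (-1.01 and -1.05 on the log2 scale) and did not pass at CT20 alone (edgeR adjusted p = 0.0878 and 0.215). Hspa5, which encodes BiP, went from 1442 ± 334 to 831 ± 178 CPM (-0.89, adjusted p = 0.00319) and also missed at CT20 alone (-0.63, adjusted p = 0.113). Syvn1, a ubiquitin ligase of the ER, was lower by -0.95 (SE 0.19, adjusted p = 0.00905), and 1 library of CT8 at 245 CPM lay far above the rest. The higher gene was Herpud1 (0.80, SE 0.18, adjusted p = 0.0163). The stress factors Xbp1, Atf4, Atf6 and Ddit3 had log2 differences of -0.11, 0.11, 0.05 and 0.14 and did not pass.

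The promoters of these genes are shown because many ER chaperone genes are known targets of 1 element. The ER stress response element, the site of ATF6 with NF-Y, searched on both strands as CCAAT and CCACG with 9 free bases between them, was in 7 of the 17 ER folding promoters at hand (41.2%) against 20 of 11726 promoters (0.171%), in 11 of 860 genes called lower (1.28%) and in 0 of 568 called higher. Hspa5, Calr, Creld2 and Syvn1 are among both the 7 and the 11, so these counts overlap. As such genes are known targets, the share in this list is no test of a link to time of day. The windows of 4 of the 7 follow, with the element in capitals, read on either strand.
Hspa5, chr2:34772005-34772063, plus strand: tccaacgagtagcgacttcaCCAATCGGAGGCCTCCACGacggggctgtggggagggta
Calr, chr8:84847055-84847113, minus strand: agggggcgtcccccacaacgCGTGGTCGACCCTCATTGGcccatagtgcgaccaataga
Pdia6, chr12:17266471-17266529, plus strand: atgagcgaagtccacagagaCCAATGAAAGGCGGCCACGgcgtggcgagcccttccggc
Creld2, chr15:88819500-88819558, plus strand: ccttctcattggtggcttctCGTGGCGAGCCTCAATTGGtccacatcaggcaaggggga
Calr and Creld2 carry the reverse complement. The others were Hsp90b1 with 2 elements, Syvn1 and Dnajc3.

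Heat shock and temperature genes, chaperones as well as others such as Rbm3, gave a mixed picture. Of 14 heat shock and temperature genes, 3 were higher and 4 lower, against 4.6% and 6.22% of all genes. With CT20 alone 1 was higher and 0 lower, against 1.26% and 1.5%. Hsp90aa1 stood at 362 and 355 CPM at CT4, 337 and 269.9 at CT8, 155 and 156 at CT12, 115 and 213 at CT16, 186 and 234 at CT20 and 440.1 and 625 at CT24, lower from CT12 to CT20 and highest at CT24 (log2 difference -0.92, SE 0.18, edgeR adjusted p = 0.007; adjusted p = 0.177 at CT20 alone). Rbm3, an RNA-binding protein induced by cold, was higher at both times (14.6 to 18.8 against 22.9 to 27.9 CPM, log2 difference 0.58, adjusted p = 0.00458) and at CT20 alone (adjusted p = 0.0227). Hspa1a and Hspa1b, near-identical copies whose reads cannot be split with certainty, were higher by 2.12 and 1.37, but replicate 2 of CT16 held 9.94 and 55.3 CPM against 1.26 and 14.2 CPM in replicate 1, and neither passed at CT20 alone (adjusted p = 0.114 and 0.183). Hspa1b did not pass at CT16 alone either. Among the fits with 1 library left out, only that without replicate 1 of CT16 called Hspa1b. Cirbp did not pass (0.01, adjusted p = 0.989).

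**Figure D3:**
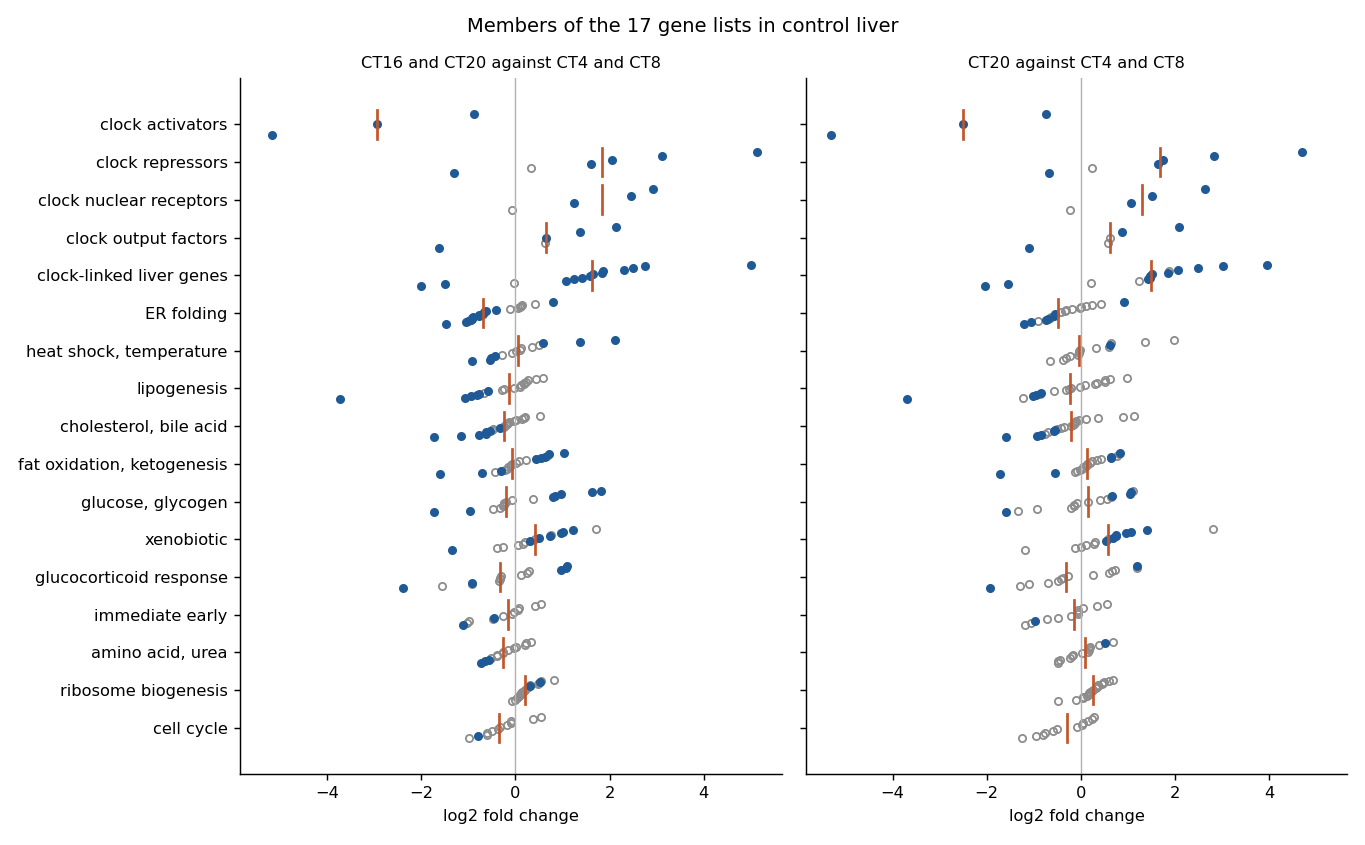
Log2 fold change of each tested member of 17 gene lists in control liver (horizontal axis), for CT16 and CT20 against CT4 and CT8 (left) and for CT20 alone (right). Filled points passed an edgeR adjusted p under 0.05, open points did not, and the vertical bar is the median, which for ER folding is -0.69 on the left and -0.49 on the right.

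In lipogenesis 6 of 18 genes were lower and 0 higher, against 6.22% and 4.6% of all genes. At CT20 alone 4 were lower, against 1.5% of all genes. With library sizes 5 were lower and 1 higher, and in sleep-deprived liver 4 were lower and 2 higher. Elovl3 (chromosome 19, 46131897 to 46135694), which lengthens very long fatty acids, stood at 423 and 247 CPM at CT4, 291 and 406 at CT8, 131 and 114 at CT12, 17.7 and 39.0 at CT16, 33.0 and 19.6 at CT20 and 95.6 and 13.6 at CT24. Its 4 libraries of CT4 and CT8 were at or above 247 CPM and its 4 of CT16 and CT20 at or below 39.0 CPM, with the pair of CT24 far apart (log2 difference -3.73, SE 0.51, edgeR adjusted p = 0.00105). Acacb, a carboxylase whose product holds back fat oxidation, went from 246–424 to 154–193 CPM (-1.07, SE 0.12, adjusted p = 0.00025), Acly, which makes cytosolic acetyl-CoA, from 572–1088 to 381–397 CPM (-0.94, SE 0.14, adjusted p = 0.00183), and Elovl5 differed by -0.81 (SE 0.16, adjusted p = 0.00762) with overlap. The sterol factor gene Srebf1 and the synthase Fasn did not pass (0.22 and -0.24, adjusted p = 0.526 and 0.413).

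In the cholesterol and bile acid list 7 of 21 were lower, against 6.22% of all genes, and 5 of 21 at CT20 alone, against 1.5%. Insig2, which retains the sterol sensor in the ER, stood at 249.97 and 247 CPM at CT4, 294 and 221 at CT8, 211 and 169 at CT12, 74.0 and 81.8 at CT16, 91.5 and 76.6 at CT20 and 179 and 65.7 at CT24. It was at or above 221 CPM in every library of CT4 and CT8 and at or below 91.5 CPM at CT16 and CT20 (log2 difference -1.74, SE 0.25, edgeR adjusted p = 0.0014). Insig1, of like function, was lower by -0.77 (SE 0.16, adjusted p = 0.0114; adjusted p = 0.0785 at CT20 alone) and peaked at CT24 with 940.0 to 1604 CPM. Dhcr7, the last enzyme of cholesterol synthesis, differed by -0.63 (SE 0.09, adjusted p = 0.00149). Cyp8b1, which sets the share of cholic acid among bile acids, differed by -1.17 over both times (adjusted p = 0.0313), although 7 of the 12 fits with a library left out did not call it, and not at CT20 alone (adjusted p = 0.465). Cyp7a1, the rate-limiting enzyme of bile acid synthesis, did not pass (0.53, SE 0.25, adjusted p = 0.201).

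Fat oxidation genes went both ways, with 5 of 19 higher and 3 lower, against 4.6% and 6.22% of all genes. At CT20 alone the counts were 3 and 2, against 1.26% and 1.5%. Cpt1a, the gate of fatty acids into mitochondria, rose from 285–341 CPM at CT4 and CT8 to 509–601 CPM at CT16 and CT20 (log2 difference 0.71, SE 0.11, edgeR adjusted p = 0.00179; 0.83 at CT20 alone). Ppara, the receptor that drives this program in fasting, was higher by 0.55 (SE 0.11, adjusted p = 0.00954). Pdk4, which blocks pyruvate use, was lower (10.6 to 26.9 against 3.74 to 7.53 CPM, log2 difference -1.61, adjusted p = 0.00415), as was the lipid droplet coat gene Plin2 (-0.70, SE 0.09, adjusted p = 0.000832). Angptl4 was called over both times (1.02, adjusted p = 0.0108) and not at CT20 alone (adjusted p = 0.156).

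In glucose and glycogen metabolism 5 of 15 were higher and 2 lower, against 4.6% and 6.22% of all genes. At CT20 alone the counts were 3 and 1, against 1.26% and 1.5%. Gys2, the liver glycogen synthase, went from 115 ± 13.2 to 220.3 ± 18.2 CPM (SD, n = 4; log2 difference 0.84, SE 0.09, edgeR adjusted p = 0.000194), and Slc2a2, the glucose transporter of hepatocytes, from 255 ± 38.1 to 529 ± 41.2 CPM (0.96, adjusted p = 0.000651). Both passed at CT20 alone. The glycogen-targeting subunits of protein phosphatase differed in direction, with Ppp1r3c lower (-1.72, adjusted p = 0.00533, and 0.117 at CT20 alone) and Ppp1r3g higher (1.81, adjusted p = 0.0104). Ppp1r3g was at 4.85 to 5.30 CPM at CT16 and at most 1.02 CPM in every other library, and at CT20 alone it was at 0.56 (adjusted p = 0.665). Pfkfb3, a switch of glycolysis, was higher by 1.62 (adjusted p = 0.00941), with 1 library of CT16 at 121 CPM above all others, and not at CT20 alone (adjusted p = 0.185). Irs2, an insulin receptor substrate, was low at CT20 (19.7 to 22.3 CPM) and not at CT16 (50.8 to 64.4 CPM).

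Of 15 drug and hormone handling genes 6 were higher, 1 was lower and 8 did not pass, with 7 higher and 0 lower at CT20 alone, 4 and 3 at CT16 alone, and 1 and 1 in sleep-deprived liver. Over all genes 4.6% were higher and 6.22% lower, and 1.26% and 1.5% at CT20 alone. At CT16 alone 22.4% were called in either direction, and in sleep-deprived liver 3.96% were higher and 5.07% lower. Pericentral liver markers, which include enzymes of this kind, are given above and their part in these values was not tested. Nr1i3, the nuclear receptor CAR, stood at 65.5 to 84.6 CPM at CT4 and CT8 and 137 to 175 CPM at CT16 and CT20 (log2 difference 0.98, SE 0.12, edgeR adjusted p = 0.000591; 1.07 at CT20 alone). The efflux pumps Abcb1a and Abcc2 were higher by 1.005 and 0.74 (adjusted p = 0.00248 and 0.00237). Cyp2a5 had 181 to 387 CPM at CT4 and CT8, 674 to 829 CPM at CT16 and CT20 and 1266–1573 CPM at CT24 (1.22, adjusted p = 0.0118). Its close copy Cyp2a4 peaked at CT24 too, at 381 to 687 CPM, and reads of the pair may be split between them. Cyp2b10, a target gene of CAR and 1 of a family of similar enzymes, was lower by -1.34 (adjusted p = 0.0155; adjusted p = 0.153 at CT20 alone).

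The remaining lists had fewer calls, to be read against 4.6% of all genes higher and 6.22% lower, and 1.26% and 1.5% at CT20 alone. Glucocorticoid response genes had 3 of 14 higher and 2 lower, immediate early genes 0 of 12 higher and 2 lower, urea and amino acid genes 0 of 14 higher and 3 lower, ribosome biogenesis genes 2 of 20 higher and 0 lower, and cell cycle genes 0 of 12 higher and 1 lower. With CT20 alone these counts were 1 and 1, 0 and 1, 1 and 0, 0 and 0, and 0 and 0. The clearest single gene was Cdkn1a, the cell cycle inhibitor p21, at 34.0 and 35.2 CPM at CT4, 23.8 and 16.1 at CT8, 11.2 and 8.94 at CT12, 3.30 and 5.09 at CT16, 7.63 and 6.16 at CT20 and 18.6 and 22.0 at CT24. It was high at CT4 and low at CT16, and called with every library left out in turn (log2 difference -2.38, SE 0.17, edgeR adjusted p = 1.56e-05; -1.93 at CT20 alone, adjusted p = 0.000815). Btg2, an antiproliferative gene, was lower by -1.11 (adjusted p = 0.00105) and Fkbp5, a glucocorticoid-induced chaperone, higher by 1.07 (adjusted p = 0.0164). Zbtb16 (1.09), Pim3 (0.96), Ier2 (-0.45), Wdr43 (0.51), Ncl (0.31), Ass1 (-0.64), Nags (-0.55), Hal (-0.73) and Top2a (-0.80) passed over both times and not at CT20 alone. Of these, Ncl and Top2a did not pass at CT16 alone either. The calls of Ier2, Ncl and Top2a were also lost in several fits with 1 library left out.

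Outside these lists, several protein-coding genes had wide differences and no overlap between the 4 and 4 libraries. Such separation was seen for 6.2% of all genes tested upward and 4.37% downward. Loxl4, a lysyl oxidase of the extracellular matrix, stood at 27.3 and 25.9 CPM at CT4, 56.4 and 65.3 at CT8, 17.6 and 8.57 at CT12, 4.10 and 3.98 at CT16, 2.94 and 3.40 at CT20 and 7.76 and 6.58 at CT24. It was highest at CT8 in both libraries and at most 4.10 CPM at CT16 and CT20 (log2 difference -3.58, SE 0.19, edgeR adjusted p = 2.31e-06; -3.66 at CT20 alone, adjusted p = 3.58e-05). Tubb2a, a beta tubulin, went from 51.9–109 to 12.3–15.7 CPM (-2.53, SE 0.13, adjusted p = 1.82e-06) and Slc34a2, a phosphate transporter, from 5.97–19.3 to 0.864–1.56 CPM (-3.29, SE 0.24, adjusted p = 1.76e-05). Pitx3, a homeobox factor, was at 9.15 to 17.1 CPM against 0.493 to 1.67 CPM, Chrna4, a subunit of nicotinic receptors, at 5.09 to 22.7 against 0.662 to 3.74 CPM, and Atp2b2, a calcium pump, at 8.72 to 21.0 against 1.85 to 5.46 CPM. All 6 passed at CT20 alone. On the higher side Sftpa1, a lung surfactant protein gene, was low in all libraries but rose from 0.245–0.663 to 1.63–4.32 CPM (2.43, SE 0.33, edgeR adjusted p = 0.000922). The noncoding genes were Gm45909 (3.21) and Gm15889 (2.14), higher beside Gm28513, and Gm15348 (-3.86), Gm23342 (-1.98) and Gm16218 (-1.96), lower, of which Gm23342 is an annotated ribosomal RNA copy and Gm16218 a processed pseudogene, so that their counts may belong to other copies.

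Over all genes the cosinor called 1752 of 19189 (9.13%), and 713 of 18770 (3.8%) without the CT16 libraries, of which 650 were among the 1752. Peaks were most frequent within 2 h of 4 h (507 genes) and within 2 h of 16 h (325), and least within 2 h of 12 h (149). Without the CT16 libraries those counts were 122, 50 and 82, and the most frequent window became that of 0 h, with 170. JTK_CYCLE, a rank test, called 29 genes (0.151%), with Loxl4, Cdkn1a and Por among those named here, and the smallest p it can give with these 12 libraries is 5.77e-05. Any difference among the 6 times was called for 2991 genes (15.6%). Of genes named for their peak window, Nat8f6 peaked at 0.283 h, Cyp2a4 at 22.2 h, Egr1 at 10.1 h, Mup8 at 10.9 h and Ttll8 at 21.2 h. Egr1, an immediate early factor, was on the mean highest at CT12 (52.4 to 93.7 CPM) and lowest at CT24 (8.39 to 9.05 CPM). Mup8, 1 of a family of near-identical urinary protein genes, ranged from 0.00 to 7.97 CPM with replicates of the same time far apart. Nat8f6 and Cyp2a4 also belong to families of similar genes.

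**Figure D4:**
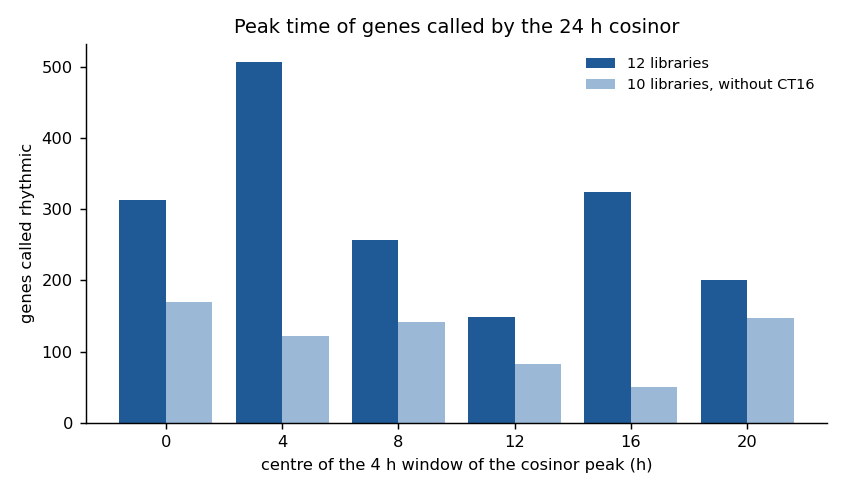
Number of genes called by the 24 h cosinor (vertical axis) by the 4 h window of their peak (horizontal axis, centre in h), for all 12 control liver libraries and for the 10 without CT16. The windows of 4 h and 16 h fall from 507 and 325 genes to 122 and 50 without the CT16 libraries.

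To see whether the program was the same in other mice, the contrast was taken in sleep-deprived liver, which shares no library with the control. There 1780 of 19708 genes passed (9.03%), 780 higher (3.96%) and 1000 lower (5.07%), and 933 (4.73%) with CT20 alone. Of the 2077 control calls 2004 had the same sign there and 977 were also called, and over all 19189 genes 13981 had the same sign. Replicate 1 of CT16 in sleep-deprived liver had a raised intron-embedded share (4.07%), as did both control libraries of CT16. Its part in the shared signs was not tested. Of the 528 control calls of CT20 alone, 518 had the same sign in sleep-deprived liver at CT20 alone and 344 were called. How many of all genes had the same sign at CT20 alone was not taken, so the 518 have no share to be set against. For the 73 named genes that were called in control liver, 72 had the same sign and 52 were called. Npas2 differed by -5.44 (SE 0.44), Arntl by -3.15 (SE 0.23), Rgs16 by 5.51 (SE 0.73), Elovl3 by -3.23 (SE 0.51) and Loxl4 by -3.05 (SE 0.25). ER folding genes gave 9 lower and 1 higher of 20. The difference of the contrast between the conditions passed for 0 of 19708 genes in edgeR, with 949 at an unadjusted p under 0.05, 7 by DESeq2 and 206 without a filter on low counts. At 2 libraries per time this does not show that the contrasts are equal. The called gene of opposite sign was Top2a, at -0.80 in control and 0.19 in sleep-deprived liver.

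**Figure D5:**
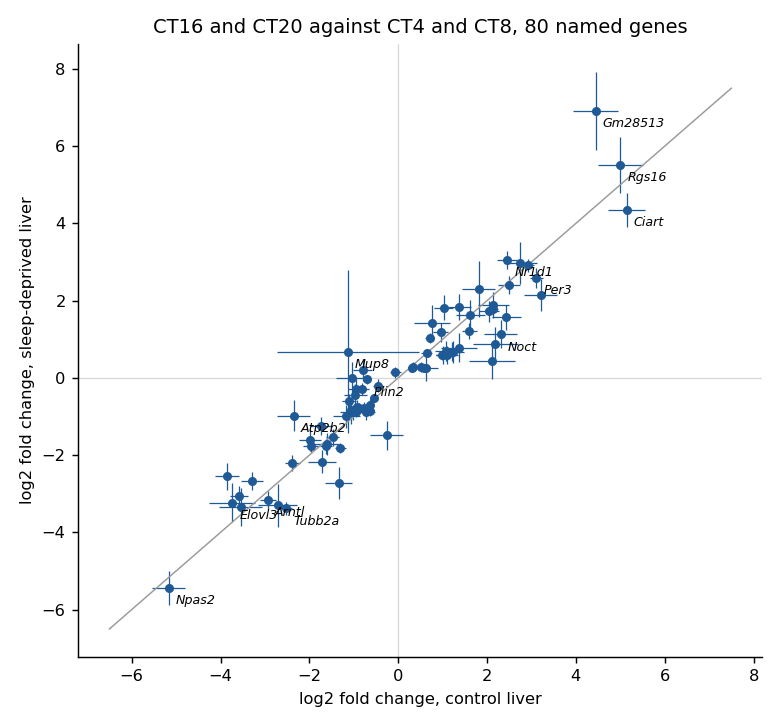
Log2 fold change of CT16 and CT20 against CT4 and CT8 for the 80 named genes in control liver (horizontal axis) and in sleep-deprived liver (vertical axis), with bars of 1 SE and the line of equal values. Npas2 and Arntl lie at the lower left and Rgs16 and Ciart at the upper right, close to the line, while Mup8 has the widest bars.

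Control kidney was used to ask which differences were not shared by another organ. For 8 of its 12 libraries the title and another label give different times, and the titles were used. The contrast passed for 334 of 22057 genes in the kidney (1.51%), and its difference from the liver for 1165 (5.28%), 487 with a higher and 678 with a lower value in the liver. Of the clock genes Arntl, Npas2 and Ciart had kidney differences of -3.36, -4.24 and 3.92 and did not pass the test of the difference from liver (edgeR adjusted p = 0.288, 0.199 and 0.286). Rgs16 differed by -0.10 in the kidney against 5.002 in the liver (difference 5.10, SE 0.72, adjusted p = 0.000602). Insig2 had 0.03 in the kidney (difference -1.78, SE 0.29, adjusted p = 0.00203), Nr1i3 0.02 (difference 0.95, adjusted p = 0.00168) and Slc34a2 -0.32 (difference -2.98, adjusted p = 4.60e-05). Of ER folding genes 7 were lower and 1 higher in the kidney as well, and 3 of 20 differed from the liver.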

How the data were processed

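Total RNA, depleted of ribosomal RNA, was sequenced as stranded paired ends. The authors trimmed reads with Trim Galore, aligned them to GRCm38 with HISAT2, filtered them with SAMtools and counted them per gene with featureCounts on the reverse strand, and the deposited values are these raw counts. The table held 54833 features, 5248 of them numbered loci without a gene name. Genes were filtered by filterByExpr over the 6 times, scaled by TMM and tested by edgeR 4.0.16 quasi-likelihood F tests (R 4.3.3) with Benjamini-Hochberg adjustment at 0.05. The contrast was the mean of CT16 and CT20 minus the mean of CT4 and CT8, from 6 time means over 12 libraries. CPM are counts scaled to a common library total. The cosinor used a 24 h period, and JTK_CYCLE was run on CPM. The scripts were tested on simulated data. The members and gene lists were chosen with earlier results of these data known. Genes were named by rule: all clock members, up to 4 called members of each other list by size of log2 difference, the 10 protein-coding and 3 noncoding called genes with the widest change each way among those with a mean of at least 1 CPM and no overlap between the 4 and 4 libraries, and the 2 protein-coding cosinor calls of widest amplitude in each 4 h peak window. Of the clock members, 1 is counted but not reported here. Further list members are given as examples, chosen after their values were seen. Depth was 32.4 to 48.9 M counts per control liver library. DESeq2 1.42.0, other scalings, filters and omitted libraries served as alternatives.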

Additional observations from a re-analysis of the deposited data

Results flagged for a closer look

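Among the 4 libraries of CT4 and CT8, replicate 2 of CT4 stood apart in depth, at 39.8 M counts, and in the number of genes detected, at 22832. These are 2 of the 8 groups of library values looked at, of which chance sets apart about 1 in 20. Without this library 1002 genes were called in place of 2077.

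The contrast differed between control liver and control kidney for 1165 of 22057 genes in edgeR (5.28%), and for 30 of the 80 named genes. Many of the 80 were named for their liver contrast, which enters this difference, so the 30 cannot be set against that share. Values are the liver log2 difference minus that of the kidney. Clock output in the liver gave 5.10 for Rgs16, 5.32 for its antisense gene Gm28513, 2.37 for Mfsd2a, 1.92 for Noct and 1.45 for Usp2. Within the loop the values were 1.02 for Per3, 0.92 for Tef, 0.85 for Nr1d2 and -0.46 for Clock. Metabolic genes gave -1.78 for Insig2, 1.05 for Angptl4, 0.95 for Nr1i3, 0.76 for Abcb1a, -0.91 for Ass1, -0.76 for Elovl5 and -0.70 for Plin2. Cdkn1a had -1.17, Top2a -1.02, Syvn1 -0.97 and Btg2 -0.93. Of the genes named for their size or peak, Slc34a2 had -2.98, Chrna4 -2.56, Loxl4 -2.44, Atp2b2 -2.26, Tubb2a -1.78 and Nat8f6 -1.58. The noncoding genes Gm15348, Gm23342, Gm16218 and Gm15889 had -3.70, -1.71, -1.06 and 1.81. All rest on kidney times taken from titles and on CT16 and CT20 together. At CT16 the intron-embedded share was raised in control liver and not in control kidney, and its part in these values was not tested. In control liver the calls of Angptl4, Ass1 and Top2a were lost at CT20 alone, and that of Top2a at CT16 alone too.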

How the results depend on the processing

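Between the times of day 2077 genes were called, against 3212 without a filter on low counts (1921 of them among the 2077), 163 with the intron-embedded share as a covariate (153), 510 from the 8 libraries of the contrast alone (505), 528 without CT16 (468) and 4298 without CT20 (1837). Leaving out 1 library gave 1002 to 1973, with 1002 without CT4 replicate 2, 1298 and 1348 without CT16 replicates 1 and 2, and 1172 and 1147 without CT20 replicates 1 and 2. For any difference among the times, the alternatives gave 6167 without a filter, 598 with the covariate and 4915 by DESeq2, and 1349 to 2952 with 1 library left out, the lowest being 1349 and 1431 without CT16 replicates 1 and 2. The cosinor gave 3852 without a filter, 901 with the covariate, 713 without CT16, 3250 by DESeq2 and 29 by JTK_CYCLE, and 928 to 1920 with 1 library left out (928 and 1040 without CT16 replicates 1 and 2, 1066 without CT24 replicate 1). Against sleep-deprived liver, 206 genes differed without a filter and 7 by DESeq2, and 0 to 1 with 1 library left out, the 1 without sleep-deprived CT8 replicate 2. Against kidney, 2029 differed without a filter and 2167 by DESeq2, and 540 to 1299 with 1 library left out. That count was 549, 667, 738, 540, 606 and 680 without kidney CT4 replicate 1, CT8 replicates 1 and 2, CT16 replicate 2 and CT20 replicates 1 and 2, and 666 and 747 without liver CT4 replicate 2 and CT20 replicate 2. The sleep-deprived contrast gave 933 without CT16 and 1267 without CT16 replicate 1. The intron-embedded share was 1.01 percentage points higher at CT16 and CT20 (exact permutation p = 0.171, two-sided), and 0.694 to 1.34 with 1 library left out. Same-numbered libraries did not deviate together (15 correlations from -0.07 to 0.16, 2 of them over 0.1), so the numbers were not taken as pairs, and the replicate block gave 2291 calls. The cause of these changes was not tested. All 73 named calls were kept by DESeq2, its size factors, the replicate block and no filter, and 69 with library sizes, which lost Hal, Ier2, Irs2 and Top2a. The 8 libraries alone kept 53, losing among others Per1 (1.49, edgeR adjusted p = 0.208), Cry1 (-1.26, 0.0921) and Bhlhe41, and 59 were kept without CT4 replicate 2, 51 without CT16 and 26 with the covariate.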
